A study of Mus musculus with 35 samples.

Results

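Chromatin accessibility around 5 genes of the Notch pathway was followed over the days in which blood cells emerge from the aortic region of the mouse embryo. Members were the peaks of the deposited ATAC-seq count table whose midpoint lies in one of 5 windows of mm9: Notch1 at chr2:26290000-26420000, Dll4 at chr2:119120000-119190000, Jag1 at chr2:136850000-137100000, Hes1 at chr16:30000000-30150000 and Hey2 at chr10:30450000-30730000. This took 84 of the 76018 peaks, of which 22 lay in the Notch1 window, 16 in the Dll4 window, 20 in the Jag1 window, 16 in the Hes1 window and 10 in the Hey2 window. Peaks are numbered along the chromosome within each window, and a peak is named by its window only, since no mm9 gene annotation was used here to tell promoters, introns or neighbouring genes apart. The median width was 526 bp among members and 496 bp among all peaks.

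ATAC-seq cuts DNA with a transposase that reaches open chromatin, so more reads at a peak mean more accessible DNA in the pool of cells. In such a pool, more cells open at a peak and a peak more open in each cell cannot be told apart. Each of the 35 libraries was made from 1500 sorted cells with 13 PCR cycles, and all 9 groups carry the genotype labelled 23GFP transgenic. The groups at embryonic day (E) 8.5 were hemogenic endothelium (HE), the endothelium from which blood cells bud, and endothelial cells (EC). At E9.5 they were cells labelled pro-HSC/HPC (HSC, hematopoietic stem cell; HPC, hematopoietic progenitor cell), HE and EC. At E10.5 they were pre-HSC II, pre-HSC I, HE and EC, where pre-HSC II is the later of the precursor stages that lead to hematopoietic stem cells. Each group had 4 libraries, except pro-HSC/HPC with 3. The dissected tissue is labelled PAS+VU at E8.5 and E9.5 and AGM+VU at E10.5, so day and tissue label cannot be told apart in comparisons of E10.5 with E9.5. The E9.5 libraries carry the tissue label of E8.5, and their day comes from their titles. What drives the transgene, how each sort was gated and whether pools came from separate litters is information not given in the sources used here. All p-values therefore measure the spread between these samples, which may in part be technical. Labelled cell types were not checked against marker genes, and other genes of the pathway were not analysed here, because peaks could not be assigned to genes.

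Notch signalling passes between touching cells. A ligand of the Delta-like or Jagged family on one cell pulls on a Notch receptor on its neighbour, the receptor is cleaved, and its intracellular part enters the nucleus, where it joins the DNA-binding protein RBPJ and switches on targets such as the Hes and Hey genes. Notch1 is the receptor needed for arterial identity and for blood stem cell formation in the aorta. Dll4 is the main ligand of arterial endothelium, and Jag1 is a ligand known to act in the aorta during stem cell formation. Hes1 and Hey2 encode transcriptional repressors of the basic helix-loop-helix type, and Hey2 also marks arterial endothelium.

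The RefSeq promoters of Dll4 and Hey2 are shown because their windows held the peaks that were called higher in HE than in EC at both E8.5 and E9.5. They are the 250 bases before the gene start in GRCm38.p6, written 5′ to 3′ along the gene's strand, with the core of the RBPJ motif (TGGGAA, or TTCCCA on the other strand) in capitals. The Dll4 promoter lies at chr2:119325534-119325783 on the plus strand and the Hey2 promoter at chr10:30842784-30843033 on the minus strand. GRCm38.p6 is not the build of the peaks, so neither sequence can be tied to a peak.

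Dll4: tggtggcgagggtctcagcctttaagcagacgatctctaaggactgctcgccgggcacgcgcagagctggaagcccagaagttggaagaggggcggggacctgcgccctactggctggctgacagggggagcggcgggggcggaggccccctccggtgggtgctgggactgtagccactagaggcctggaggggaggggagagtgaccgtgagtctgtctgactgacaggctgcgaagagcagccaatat

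Hey2: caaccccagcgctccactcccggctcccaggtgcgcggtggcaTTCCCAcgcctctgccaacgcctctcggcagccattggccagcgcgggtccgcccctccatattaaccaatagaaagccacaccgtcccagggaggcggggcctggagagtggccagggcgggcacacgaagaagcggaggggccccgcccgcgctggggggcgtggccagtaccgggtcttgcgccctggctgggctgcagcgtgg

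The search covered both strands of 4 of the 5 member genes, and Hes1 had no entry. It found the core once, in Hey2, at bases -207 to -202 from the gene start on the other strand, and not in these windows of Notch1, Dll4 and Jag1. The core is short, and 21.6% of 32851 promoter windows of this length hold it on either strand. A match is a description of letters and says nothing of binding.

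Libraries held 456770 to 7415315 counts in peaks. Values are given as CPM, a library's counts divided by its TMM-scaled size and multiplied by 1000000, and 3 counts equal 6.57 CPM in the shallowest and 0.405 CPM in the deepest library before TMM scaling. Pre-HSC II was the shallowest group, with 456770 to 1241216 counts. Libraries 2 and 3 of pre-HSC I differed less than sampling noise allows, with a chi-square over its degrees of freedom of 0.4606, where 50 other pairs within groups gave 2.59 to 8.04. They were averaged and counted as 1 sample, named library 2 here, which leaves 34 samples. Some E9.5 libraries stood apart at a chromosome X peak, with 6470 and 7280 counts in EC libraries 3 and 4 and 9126 in HE library 4, against 777 to 1177 in the other E9.5 HE and EC libraries. These had 5720, 2560 and 3570 CPM and are the chromosome X libraries left out below. By CPM, E9.5 HE library 3 was raised too, at 606, against 125 to 169 in libraries 1 and 2 of E9.5 HE and EC. So were library 4 of E10.5 HE (871 CPM), of pre-HSC I (505) and of pre-HSC II (539), among others. All of those were kept. The libraries also differed in how far reads gathered in few peaks. The 10% of peaks with the highest mean CPM, called strong peaks here, held 51.9 ± 2.85% of the counts in E8.5 HE and 50.3 ± 3.26% in E8.5 EC (SD, n = 4 each). They held 48.7 ± 1.75% in pre-HSC II (n = 4) and a mean of 55.2% to 58.3% in the other E9.5 and E10.5 groups. Of the 84 members, 75 passed the filter on low counts. The 9 that did not averaged 1.18 to 2.01 CPM, with 92.5 to 235.5 counts in all samples together: peak 20 of Notch1, peaks 1 and 8 of Dll4, peak 12 of Jag1 and peaks 2, 3, 11, 15 and 16 of Hes1. Of the 75 tested members, 15 were strong peaks.

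In each window the accessibility was highest at E9.5 or E10.5 and low in pre-HSC II. The summed CPM of the Notch1 window averaged 192 ± 95.6 in pre-HSC II and 501 ± 155.7 in E10.5 EC (SD, n = 4 each), and the highest mean was 521 ± 52.5 in E9.5 EC. The Dll4 window summed to 162 ± 48.8 CPM in pre-HSC II and 442 ± 182.7 CPM in E10.5 EC, with its highest mean, 604 ± 83.6 CPM, in E9.5 HE. The Hes1 window summed to 174.5 ± 78.0 CPM in pre-HSC II and 515 ± 138 CPM in E10.5 EC, and was again highest in E9.5 EC with 533 ± 40.2 CPM. By mean the Notch1 and Hes1 windows were thus highest in EC, and the Dll4, Jag1 and Hey2 windows in HE. In E9.5 HE the Notch1 window summed to 492 ± 69.6 CPM and the Hes1 window to 474 ± 21.8 CPM, and both overlapped E9.5 EC. The Jag1 window overlapped between E9.5 HE and EC as well, and the Dll4 and Hey2 windows did not. The Jag1 window averaged 216 ± 17.0 CPM in pre-HSC II and 444 ± 19.9 CPM in E9.5 HE, and the Hey2 window 211 ± 40.1 CPM in pre-HSC II and 410.0 ± 42.2 CPM in E9.5 HE. Pre-HSC II had the lowest mean of the 9 groups in every window on the TMM scale. The Hey2 window was the exception on total counts, where pre-HSC II averaged 248 CPM and E9.5 EC 234 CPM, and on total counts and RLE size factors its highest mean was that of E10.5 HE. These sums are a description, and their libraries overlapped between several groups.

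**Figure D1:**
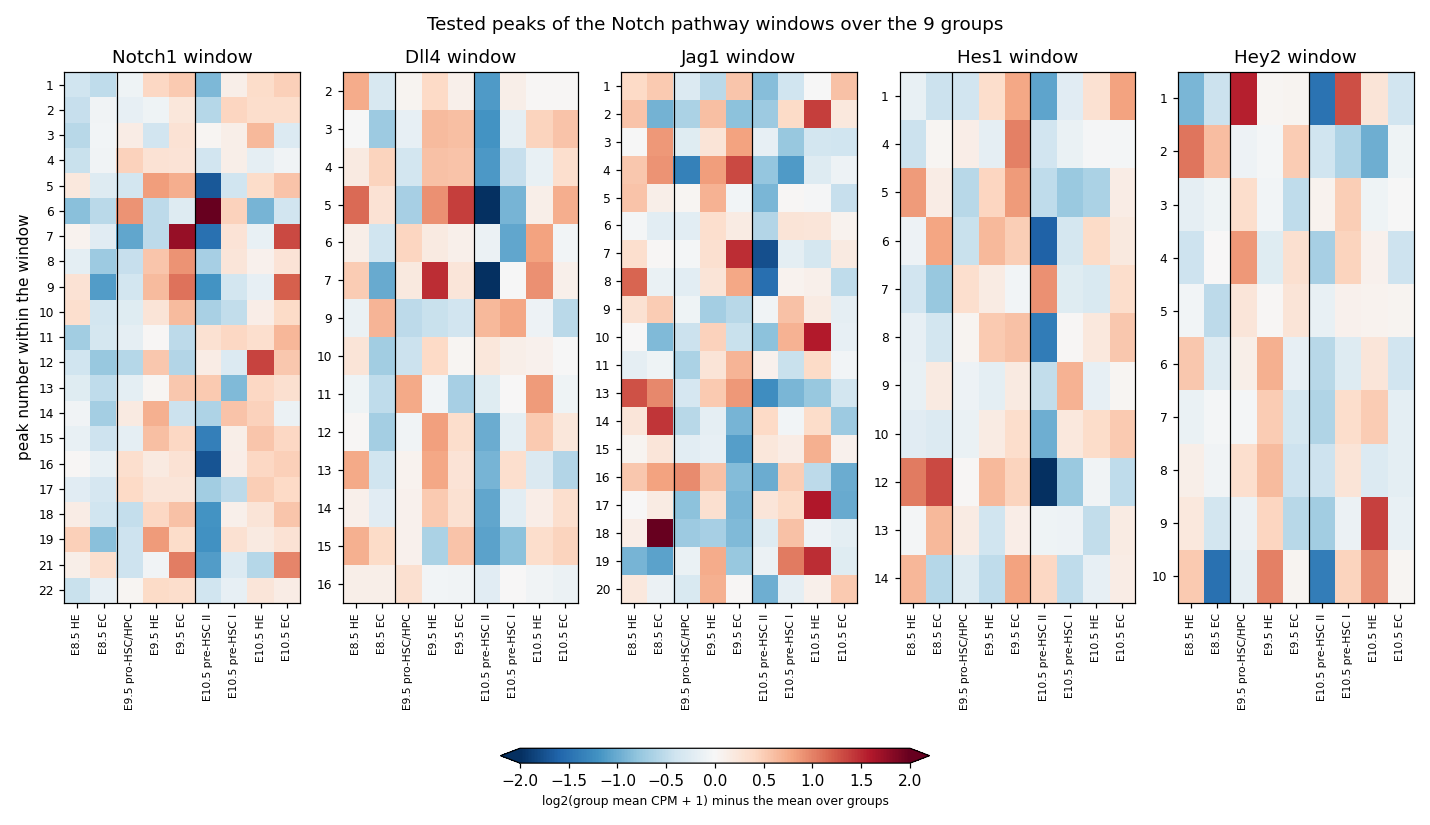
Each row is a tested peak of a window, each column a group, and the colour is log2 of the group mean CPM plus 1, minus the mean over the groups. Many rows are blue in the pre-HSC II column, Dll4 peak 7 and Hey2 peak 10 are red in E9.5 HE, and Notch1 peak 6 is dark red in pre-HSC II; colours past the ends of the scale are drawn at its ends.

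Each comparison was tested over all 67108 peaks that passed the filter, and calls were made at an adjusted p of 0.05 (edgeR quasi-likelihood test, Benjamini-Hochberg adjustment). Between HE and EC a few members were called at each day, more often higher in HE. At E8.5, 3 of 75 members were higher and none lower in HE (4%, against 1.44% of all tested peaks, 1.31% higher and 0.13% lower). At E9.5, 3 were higher and 1 lower (5.33%, against 2.58% of all tested peaks, 1.36% higher and 1.21% lower), and at E10.5, 5 were higher and 1 lower (8%, against 2.28%, 0.717% higher and 1.57% lower). The median log2 fold change of the members was 0.30 at E8.5, -0.01 at E9.5 and 0.02 at E10.5, and that of all tested peaks was 0.02, 0.05 and 0.01. On total counts both E8.5 medians were lower, at 0.19 for the members and -0.09 for all peaks, and 2 members were called. All peaks then split into 600 higher and 99 lower, against 881 higher and 87 lower on TMM. Without the 4 shallow E8.5 libraries no member was called at E8.5, and with only HE and EC of that day in the fit 5 were. At E9.5 the count was 14 with only HE and EC of that day, 2 without EC 1 or HE 2, 1 without EC 4, and 0 without HE 4 or without the libraries high at the chromosome X peak. At E10.5 it was 2 without EC 2, EC 3 or HE 1, 3 without the shallow HE libraries 1 and 4, and 1 when the fit held only HE and EC of that day. Replicate numbers were taken to pair the E10.5 HE and EC samples, from the data and not the labels. With the replicate number as a block in the fit of only these groups, the count was 9 (7 higher and 2 lower). The added calls were Dll4 peak 7 and Jag1 peak 19, higher in HE (log2 fold change 0.86 and 2.22, edgeR adjusted p = 0.0139 and 0.00129), and Notch1 peak 7, lower (log2 fold change -1.79, edgeR adjusted p = 0.0372). Counts over all peaks in these reduced fits and in the paired fit are not given here. A shift at the members alone thus cannot be told from a general one. By window, the Hey2 window had 1, 2 and 3 called members of 10 over the 3 days. The Hes1 window had none of 11 at any day, which for so few peaks is near the all-peak shares.

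In edgeR's test the calls in the blood groups were on the lower side, with 1 exception, Notch1 peak 6. In pro-HSC/HPC against HE at E9.5, 5 members were lower and none higher (6.67%, against 1.74% of all tested peaks, 0.644% higher and 1.1% lower), with a member median of -0.55 and an all-peak median of 0.02 (log2 fold change). In pre-HSC I against HE at E10.5, edgeR called 0 members (0.079% of all tested peaks were called, 0.0656% higher and 0.0134% lower), and DESeq2 called 1, lower. Over all peaks DESeq2 called 134 higher and 104 lower there. Among the members, 15 had an unadjusted p under 0.05, and the share of all peaks at that level was not computed. The member median was -0.26 and the all-peak median 0.01. Against pre-HSC I, 10 members were lower and none higher in pre-HSC II (13.3%, against 5.15% of all tested peaks, 0.852% higher and 4.29% lower), with medians of -0.84 for the members and -0.17 for all peaks. DESeq2 called 7 lower and 1 higher there, Notch1 peak 6 (log2 fold change 2.05, DESeq2 adjusted p = 0.0467). Over all peaks DESeq2 called 1712 lower and 1880 higher. In pre-HSC II against EC at E10.5, 25 were lower and 1 higher (34.7%, against 25.3% of all tested peaks, 9.13% higher and 16.2% lower), with medians of -0.59 for the members and -0.14 for all peaks. DESeq2 called 21 lower and 2 higher, Notch1 peak 6 and Jag1 peak 17 (peak 17: log2 fold change 2.06, DESeq2 adjusted p = 0.0482). Over all peaks it called 8266 lower and 10160 higher in this comparison. The pro-HSC/HPC count was 13 with only pro-HSC/HPC and HE in the fit and 1 without the E9.5 libraries high at the chromosome X peak. With 1 library left out it was 2 without HE 1 or pro-HSC/HPC 1, and 1 without HE 2, HE 4, pro-HSC/HPC 2 or pro-HSC/HPC 3. The count against pre-HSC I was 4 without pre-HSC I 1, 6 without pre-HSC I 4, 5 without pre-HSC II 2 and 16 without pre-HSC II 4. Without the shallow E10.5 HE libraries 1 and 4 (1215458 and 1101787 counts), 5 members were lower in pre-HSC I than in HE. For these fits with fewer libraries or groups, counts over all peaks are not given here. Scaling by RLE size factors or total counts shifted the all-peak median by 0.28 and 0.27 with pre-HSC I as the baseline and by 0.27 and 0.35 with EC. The called members were then 5 and 6 against pre-HSC I, all lower. All peaks in that comparison split into 903 higher and 1238 lower on RLE size factors and 903 higher and 1321 lower on total counts. On TMM they split into 572 higher and 2881 lower. Against EC, 20 members were lower and 1 higher under both scalings. There all peaks split into 8325 higher and 7699 lower on RLE size factors and 9057 higher and 6889 lower on total counts, against 6128 higher and 10863 lower on TMM. Pre-HSC II also differed in the share of reads in strong peaks given above, and the part of that in these results was not tested. Among strong peaks, 13 of 15 members and 46.2% of all peaks were lower in pre-HSC II than in EC. Among the rest, 12 of 60 members and 12.4% of all peaks were lower. Against pre-HSC I, 8 of 15 strong members and 18.5% of all strong peaks were lower, with 2 of 60 members and 2.48% of all peaks among the rest.

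In EC themselves, 12 members were higher and 2 lower at E9.5 than at E8.5 (18.7%, against 11.1% of all tested peaks, 6.49% higher and 4.59% lower), with medians of 0.55 for the members and -0.07 for all peaks. On total counts the all-peak median shifted by -0.23, and 9 members were higher and 3 lower. All peaks then split into 2884 higher and 4793 lower, against 4355 higher and 3079 lower on TMM. Strong peaks held a larger mean share of reads at E9.5 than at E8.5, as given above, and the part of that in this result was not tested. Among strong peaks 9 of 15 members and 19.9% of all peaks were higher, and among the rest 3 of 60 members and 4.78% of all peaks. Without the 4 shallow E8.5 libraries (libraries 1 and 2 of HE and EC, 1004036 to 1634087 counts), 1 member was called, and without the E9.5 libraries high at the chromosome X peak, 8. Between E10.5 and E9.5 EC, 1 member was called, lower (1.33%, against 0.316% of all tested peaks, 0.0671% higher and 0.249% lower). DESeq2 called 2 lower there, with 151 higher and 713 lower among all peaks. The HE minus EC difference changed between the first days, E8.5 and E9.5, at 1 member (1.33%, against 1.5% of all tested peaks, 0.282% higher and 1.21% lower) and between E9.5 and E10.5 at none by edgeR or DESeq2, with none of the 75 at an unadjusted p under 0.05 and 0% of all tested peaks called. By DESeq2 the change from E8.5 to E9.5 was called higher at 1 member and lower at 2, with 427 higher and 2140 lower among all peaks. Comparisons that share a group, such as those with E9.5 HE or E10.5 EC, share its libraries.

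**Figure D2:**
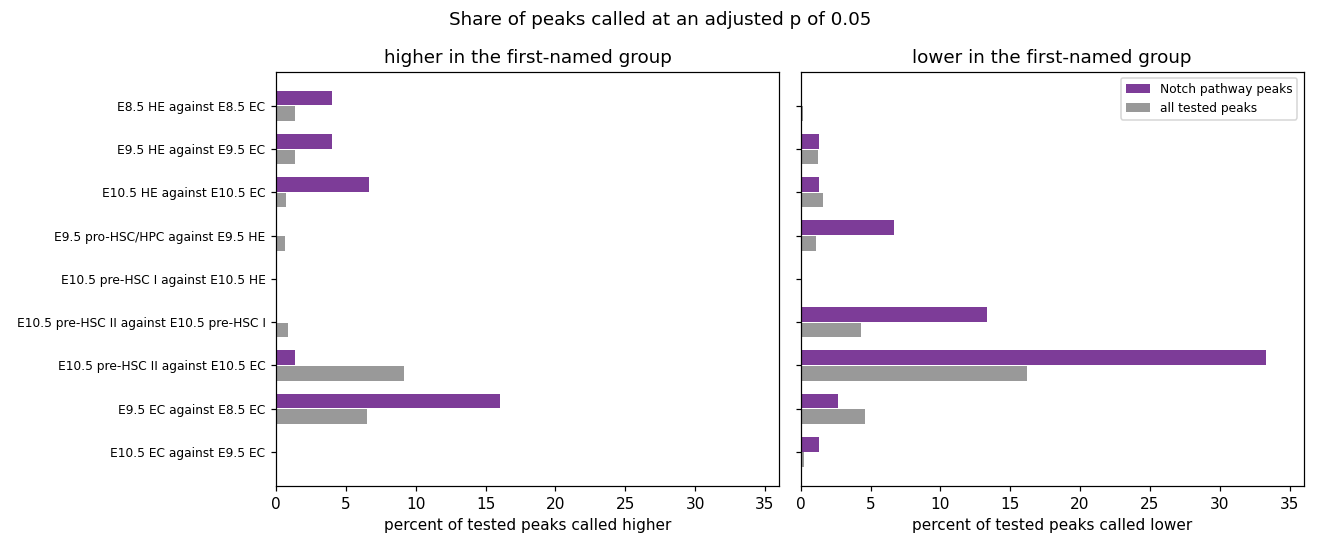
The bars give the percent of tested peaks called higher (left) and lower (right) in the first-named group at an edgeR adjusted p of 0.05, for the 75 members (purple) and all 67108 tested peaks (grey). The longest bars are those of pre-HSC II against EC on the lower side and of E9.5 EC against E8.5 EC on the higher side, and the 2 changes of HE against EC are not drawn.

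In the Notch1 window 1 of 21 tested peaks was called between HE and EC on each day (4.76%). Of all tested peaks 1.44%, 2.58% and 2.28% were called on the 3 days. The direction of the best-covered of the called peaks, peak 9, was not the same on all days. Notch1 peak 9 (chr2:26345775-26347006) had 19.3, 27.4, 22.8 and 25.4 CPM in the E8.5 HE libraries, against 7.94, 7.84, 14.0 and 3.54 CPM in the E8.5 EC libraries. At E9.5 it had 24.3, 48.7, 14.8 and 33.7 CPM in HE, against 32.8, 59.9, 37.1 and 38.7 CPM in EC. At E10.5 it had 3.22, 28.3, 18.7 and 17.7 CPM in HE, against 19.3, 48.4, 70.8 and 43.3 CPM in EC. All HE libraries stood above all EC libraries at E8.5, the groups overlapped at E9.5, and at E10.5 HE lay lower with overlap through the lowest EC library. The test called it higher in HE at E8.5 (log2 fold change 1.5 ± 0.41 SE, edgeR adjusted p = 0.0388) and lower at E10.5 (log2 fold change -1.36 ± 0.37 SE, edgeR adjusted p = 0.0281), and not at E9.5 (log2 fold change -0.46 ± 0.35 SE, edgeR adjusted p = 0.695). The change of that difference between E8.5 and E9.5 was itself called (log2 fold change -1.95 ± 0.54 SE, edgeR adjusted p = 0.042), but in only 3 of the 16 fits that left out a library and not on total counts, without the shallow E8.5 or without the chromosome X libraries. The next change, to E10.5, was not called (-0.91 ± 0.51, edgeR adjusted p = 1). The EC level itself was higher at E9.5 than at E8.5 (log2 fold change 2.33 ± 0.40 SE, edgeR adjusted p = 6.66e-05), a call that held in every alternative and with any 1 library left out. The E8.5 call was lost without any 1 of EC 1, 2 or 4 and HE 2, 3 or 4, on total counts and with the shallow E8.5 libraries removed (log2 fold change 1.43). The E10.5 call was lost without EC 2 or 3 or HE 1 or 4, without both shallow HE libraries and with only these groups in the fit.

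A narrow peak a few kb away separated EC from HE at E9.5. Notch1 peak 7 (chr2:26342281-26342574) had 3.59, 2.41, 1.71 and 0.783 CPM in E9.5 HE, against 14.6, 14.9, 15.9 and 10.6 CPM in E9.5 EC. Every EC library was above every HE library (log2 fold change -2.58 ± 0.62 SE, edgeR adjusted p = 0.00972), and the call was lost without HE 4 or without the libraries high at the chromosome X peak. The EC level was also higher at E9.5 than at E8.5, where the EC libraries had 1.44, 4.36, 4.16 and 1.42 CPM (log2 fold change 2.30 ± 0.65 SE, edgeR adjusted p = 0.0141), a call lost without E8.5 EC 4 or without the shallow libraries. Among the Notch1 peaks it had the widest range of group means, spanning 3.8 on the log2 scale between E9.5 EC and pre-HSC II. In pre-HSC II it was seen in 1 library only, with 2 counts over the group against 161 in E10.5 EC, a ratio of 0.0491 (exact 95% counting interval 0.0059 to 0.18).

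In the blood groups the calls of the Notch1 window were on the lower side, except for peak 6. Against E9.5 HE, peak 5 (chr2:26330257-26331604) was lower in pro-HSC/HPC, with 26.4, 34.6 and 17.0 CPM in pro-HSC/HPC and 43.1, 65.9, 69.0 and 65.0 CPM in HE (log2 fold change -1.19 ± 0.34 SE, edgeR adjusted p = 0.0475). The groups did not overlap, but this call was kept in only 1 of the 7 fits that left out a library, and not without the chromosome X libraries. Peak 15 (chr2:26357132-26360212), the widest peak of the window, had 3.47, 12.5, 35.8 and 28.2 CPM in pre-HSC II, against 56.8, 46.5 and 69.0 CPM in pre-HSC I (log2 fold change -1.43 ± 0.36 SE, edgeR adjusted p = 0.0112). All pre-HSC II libraries lay below all pre-HSC I libraries there, and the call was lost without pre-HSC I library 4 or pre-HSC II library 2. Peak 1 (chr2:26299958-26301949), the strongest of the window, averaged 69.5 ± 44.8 CPM in pre-HSC II (SD, n = 4) against 143 ± 11.98 CPM in pre-HSC I (n = 3; log2 fold change -1 ± 0.29 SE, edgeR adjusted p = 0.0329). Peak 16 was called lower too (log2 fold change -1.99 ± 0.59 SE, edgeR adjusted p = 0.0357). Both calls were lost on RLE size factors and total counts, without pre-HSC I 1 or 4 and without pre-HSC II 1 or 2, and that of peak 1 also without pre-HSC I 2 and by DESeq2. Against E10.5 EC, 10 of the 21 tested Notch1 peaks were lower in pre-HSC II (peaks 1, 5, 7, 9, 10, 15, 16, 18, 19 and 21), where 16.2% of all tested peaks were lower. The calls of peaks 10 and 19 were lost on RLE size factors, on total counts and by DESeq2. With 1 library left out, peak 10 was lost without EC 2 or pre-HSC II 1 or 4, peak 19 without EC 2 or 3 or pre-HSC II 2, 3 or 4, and peak 21 without pre-HSC II 4. Peak 5 was the first of these by adjusted p (log2 fold change -2.29 ± 0.38 SE, edgeR adjusted p = 3.97e-06). Between E9.5 and E8.5 EC, 5 of the 21 were higher at E9.5 (peaks 1, 5, 7, 9 and 10; 6.49% of all tested peaks were higher), and 19 of the 21 log2 fold changes were above 0. The window's median was 0.72, against -0.07 for all tested peaks and 0.38 for all strong peaks, and the share of all peaks above 0 was not computed.

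Notch1 peak 6 (chr2:26338515-26339231) was the single member that edgeR called higher in pre-HSC II than in EC, where DESeq2 called 2. It had 12.1, 21.3, 31.1 and 25.2 CPM in pre-HSC II, against 1.88, 2.18, 2.59 and 6.15 CPM in E10.5 EC (log2 fold change 2.80 ± 0.63 SE, edgeR adjusted p = 0.000552). Every pre-HSC II library was above every EC library, and the call held in every alternative and with any 1 library left out. The other blood groups had 12.8, 10.2 and 4.62 CPM (pro-HSC/HPC) and 2.58, 13.5 and 3.57 CPM (pre-HSC I), and no HE or EC library of any day exceeded 7.07 CPM. Those groups were not separated from HE by the test: log2 fold change 1.7 ± 0.65 SE, edgeR adjusted p = 0.182 for pro-HSC/HPC and log2 fold change 1.91 ± 0.77 SE, edgeR adjusted p = 0.442 for pre-HSC I, each against HE of its day. Against pre-HSC I, edgeR did not call pre-HSC II higher (log2 fold change 1.76 ± 0.68 SE, edgeR adjusted p = 0.115) and DESeq2 did, as given above, with pre-HSC I library 2 inside the pre-HSC II range.

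At the ligand Dll4 one peak of the window set HE apart from EC at E8.5 and E9.5. Dll4 peak 7 (chr2:119139496-119141425) had 57.9, 44.4, 90.6 and 80.1 CPM in E8.5 HE, against 16.6, 15.7, 35.97 and 25.5 CPM in E8.5 EC. At E9.5 it had 118, 150.3, 108 and 163 CPM in HE, against 49.4, 63.3, 65.4 and 50.6 CPM in EC. At both days every HE library was above every EC library, and the peak was called at E8.5 (log2 fold change 1.51 ± 0.33 SE, edgeR adjusted p = 0.0064) and at E9.5 (log2 fold change 1.24 ± 0.31 SE, edgeR adjusted p = 0.0134). At E10.5 the HE libraries had 67.7, 74.9, 166 and 58.0 CPM and the EC libraries 21.7, 40.9, 88.7 and 54.2 CPM, where library 3 was the highest of each group. The groups overlapped, though HE was above EC in 4 of 4 same-numbered pairs. The peak was not called without the pairing (log2 fold change 0.84 ± 0.31 SE, edgeR adjusted p = 0.155) and was called in the paired fit of these 2 groups, as given above. The change of the difference from E9.5 to E10.5 was not called (-0.40 ± 0.43, edgeR adjusted p = 1). The E8.5 call held with any 1 library left out and was lost when the 4 shallow libraries were removed (log2 fold change 1.44, edgeR adjusted p = 0.328, alternatives from 0.000263). The E9.5 call was lost without any 1 of EC 1, EC 4, HE 2 and HE 4, and without the chromosome X libraries.

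The same peak was lower in pro-HSC/HPC and in pre-HSC II. Pro-HSC/HPC had 62.6, 60.03 and 43.1 CPM, all below the E9.5 HE libraries (log2 fold change -1.27 ± 0.34 SE, edgeR adjusted p = 0.0347). This call was kept in 1 of the 7 fits that left out a library and lost without the chromosome X libraries. Pre-HSC II had 0, 5.01, 9.56 and 17.8 CPM, against 65.9, 32.5 and 44.0 CPM in pre-HSC I. All pre-HSC II libraries lay below all pre-HSC I and all E10.5 EC libraries, and the peak was lower than in pre-HSC I (log2 fold change -2.32 ± 0.43 SE, edgeR adjusted p = 0.000487) and than in E10.5 EC (log2 fold change -2.45 ± 0.41 SE, edgeR adjusted p = 4.16e-06), calls that held in every alternative and with any 1 library left out. Pre-HSC I was not separated from E10.5 HE (log2 fold change -0.97 ± 0.35 SE, edgeR adjusted p = 0.347), though its mean of 47.5 ± 16.9 CPM (SD, n = 3) was below the 91.6 ± 49.9 CPM of HE (n = 4). By group mean the order from high to low was E9.5 HE, E10.5 HE, E8.5 HE, E9.5 EC, pro-HSC/HPC, E10.5 EC, pre-HSC I, E8.5 EC and pre-HSC II. Every pair of neighbours in that order overlapped in its libraries.

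In the Dll4 window 12 of 14 tested peaks, peak 7 included, had a positive log2 fold change in HE against EC at E8.5, and edgeR called peak 7 alone. The window's median was 0.72, against 0.02 for all tested peaks and 0.1 for all strong peaks. The share of all peaks above 0 was not computed. Peak 12 (chr2:119150341-119154036), the widest, averaged 87.5 ± 23.7 CPM in E8.5 HE and 53.2 ± 4.29 CPM in E8.5 EC without overlap, and did not pass the test (log2 fold change 0.73 ± 0.25 SE, edgeR adjusted p = 0.135), while DESeq2 called it (log2 fold change 0.72, DESeq2 adjusted p = 0.0453). Peak 5 (chr2:119137017-119137924) had the widest range of group means of any member, 5.01 on the log2 scale. It had 0, 0, 0 and 2.97 CPM in pre-HSC II, against 6.60, 22.4, 32.8 and 25.2 CPM in E10.5 EC, which did not overlap (log2 fold change -4.29 ± 0.70 SE, edgeR adjusted p = 2.94e-06). In pro-HSC/HPC it had 10.3, 6.47 and 6.16 CPM, against 32.9, 31.7, 11.98 and 22.7 CPM in E9.5 HE (log2 fold change -1.67 ± 0.47 SE, edgeR adjusted p = 0.0465), a call lost on total counts, without the chromosome X libraries and in 6 of the 7 fits that left out a library. In all, 7 of 14 Dll4 peaks were lower in pre-HSC II than in E10.5 EC (peaks 3, 4, 5, 7, 12, 14 and 15; 16.2% of all tested peaks were lower), and 3 were higher in E9.5 EC than in E8.5 EC (peaks 3, 7 and 12; 6.49% of all tested peaks were higher). The lower calls of peaks 4 and 15 were lost on RLE size factors, on total counts and when the fit held pre-HSC II and EC alone, and that of peak 15 also by DESeq2. With 1 library left out, peak 4 was lost without EC 2 or pre-HSC II 3 or 4, and peak 15 without EC 2 or 3 or pre-HSC II 1, 2 or 4. Peak 3 (chr2:119125270-119127360), the strongest of the window, had 127, 146, 177 and 163 CPM in E9.5 EC, against 38.2, 41.0, 100.3 and 63.8 CPM in E8.5 EC (log2 fold change 1.30 ± 0.28 SE, edgeR adjusted p = 0.00119), with no overlap. That call held with any 1 library left out and was lost without the shallow E8.5 libraries (log2 fold change 0.87, edgeR adjusted p = 0.16), as were those of peaks 7 and 12. The peak 7 call was also lost without the chromosome X libraries.

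**Figure D3:**
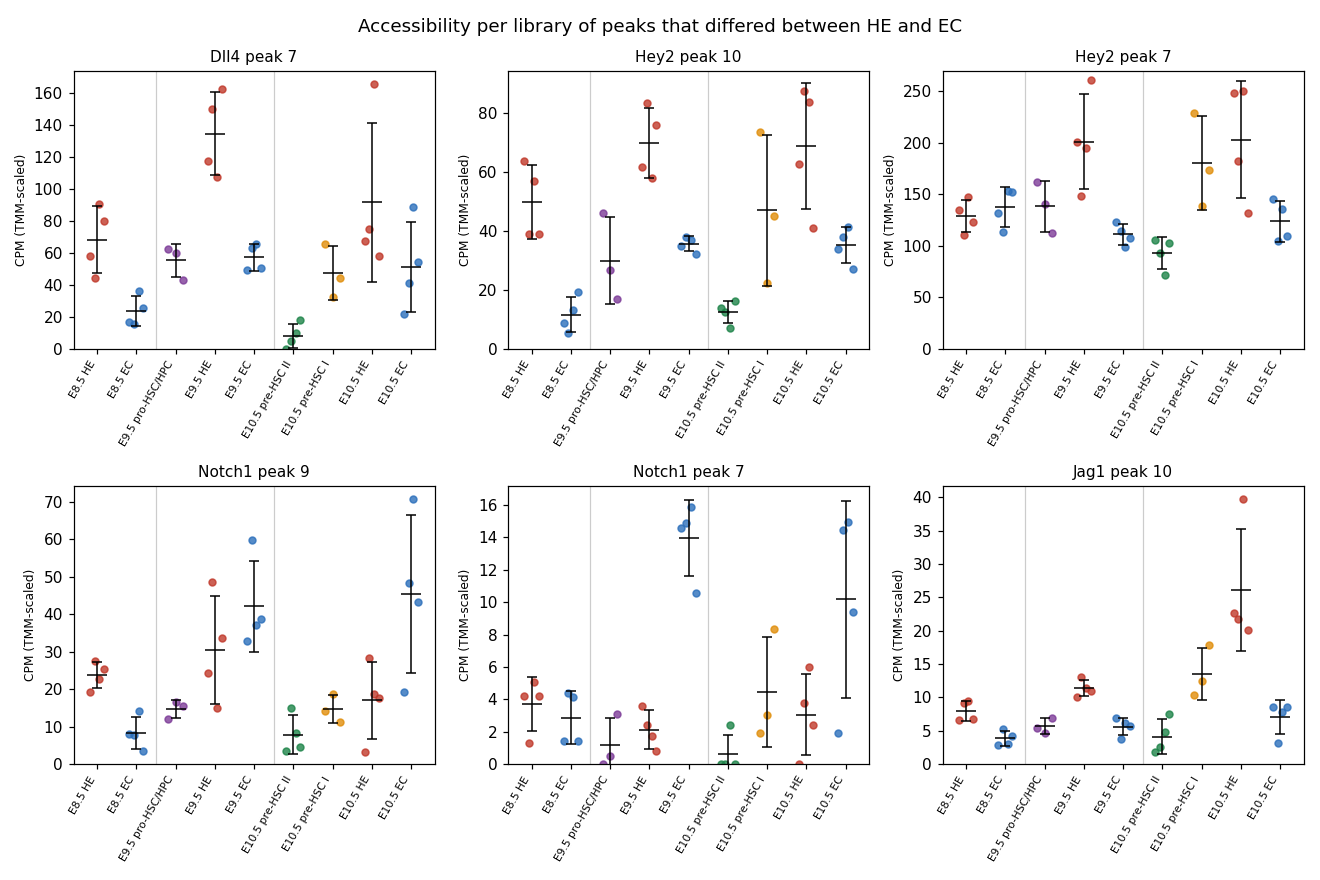
CPM (TMM scale) of 6 members in each library, with a black bar for the group mean and whiskers for the SD. In Dll4 peak 7 and Hey2 peak 10 the HE points lie above the EC points at E8.5 and E9.5, in Notch1 peak 7 the E9.5 EC points lie between 10.6 and 15.9 CPM, above all E9.5 HE points, and in Jag1 peak 10 the E10.5 HE points lie between 20.2 and 39.8 CPM, above all E10.5 EC points.

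At the ligand Jag1 the strongest peak was not called between HE and EC, while weaker peaks far from it were higher in HE at E10.5. Jag1 peak 6 (chr2:136939214-136943770), which had the highest mean CPM of all members, averaged 276 ± 93.5 CPM in E10.5 HE and 245 ± 42.0 CPM in E10.5 EC (SD, n = 4 each; log2 fold change 0.17 ± 0.19 SE, edgeR adjusted p = 0.812). Peak 10 (chr2:137017782-137018413), 76.6 kb further along the chromosome, had 22.6, 21.8, 39.8 and 20.2 CPM in E10.5 HE, against 8.48, 3.17, 7.77 and 8.49 CPM in E10.5 EC. All HE libraries were above all EC libraries (log2 fold change 1.94 ± 0.40 SE, edgeR adjusted p = 0.00294). The call held with any 1 library left out and missed the threshold with only these groups in the fit (edgeR adjusted p = 0.0598, the highest of its alternatives). At the earlier days the HE and EC libraries of peak 10 did not overlap either, with means of 7.99 ± 1.49 CPM in HE and 3.85 ± 1.11 CPM in EC at E8.5, and 11.4 ± 1.24 CPM in HE and 5.61 ± 1.30 CPM in EC at E9.5. Neither day passed the test (log2 fold change 1.07 ± 0.45 SE, edgeR adjusted p = 0.246 at E8.5 and log2 fold change 1.03 ± 0.40 SE, edgeR adjusted p = 0.192 at E9.5). Peak 17 (chr2:137069778-137070148) had 24.2, 6.13, 5.68 and 12.9 CPM in E10.5 HE, against 1.88, 0.793, 1.15 and 0.878 CPM in E10.5 EC (log2 fold change 3.35 ± 0.74 SE, edgeR adjusted p = 0.00591). The groups did not overlap, but the highest values came from the shallow HE libraries 1 and 4, and the call was lost without library 1 or without both.

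Jag1 peak 4 (chr2:136924465-136925727) had the smallest adjusted p of the members between pro-HSC/HPC and HE. It had 8.98, 5.54 and 1.54 CPM in pro-HSC/HPC, against 28.9, 31.0, 24.5 and 26.6 CPM in E9.5 HE. The groups were far apart (log2 fold change -2.22 ± 0.40 SE, edgeR adjusted p = 0.00129), and among the 5 members called in this comparison it was the one whose call held in every alternative and with any 1 library left out. It was also the one member called between the later days in EC, with 12.2, 13.9, 15.5 and 14.9 CPM in E10.5 EC, against 43.0, 48.4, 36.2 and 30.6 CPM in E9.5 EC (log2 fold change -1.48 ± 0.33 SE, edgeR adjusted p = 0.0175). That call was lost without any 1 of E9.5 EC 1 or 2 and E10.5 EC 1 or 4, and without the chromosome X libraries. At E10.5 all 4 groups were low, with means of 8.53 ± 2.58 CPM in pre-HSC II, 6.38 ± 2.23 CPM in pre-HSC I, 12.6 ± 7.51 CPM in HE and 14.2 ± 1.44 CPM in EC, and none of the 4 comparisons tested at E10.5 called it. Pre-HSC I was not tested against EC.

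Jag1 peaks 18 and 14 were highest in E8.5 EC. Peak 18 (chr2:137070637-137071318) had 1.86, 1.34, 0 and 0.703 CPM in E9.5 EC, against 16.6, 20.04, 13.3 and 9.22 CPM in E8.5 EC (log2 fold change -3.58 ± 0.90 SE, edgeR adjusted p = 0.00531), a call that held with any 1 library left out and was lost without the shallow E8.5 or the chromosome X libraries. The E8.5 EC libraries were above those of every other group, E8.5 HE included, which averaged 3.01 ± 1.67 CPM (HE against EC at E8.5: log2 fold change -2.31 ± 0.84 SE, edgeR adjusted p = 0.157, not called). Peak 14 (chr2:137036687-137037082) had 3 counts in all E9.5 EC libraries and 42 in all E8.5 EC libraries, a ratio of 0.0365 (exact 95% counting interval 0.0072 to 0.114). The call was lost without E9.5 EC 1 or without the shallow E8.5 libraries. Peak 7 was the one Jag1 peak higher in E9.5 EC than in E8.5 EC (log2 fold change 1.68 ± 0.56 SE, edgeR adjusted p = 0.0401), a call lost in 5 of the 8 fits that left out a library. It was lost too on RLE size factors, on total counts and without the shallow E8.5 or the chromosome X libraries. In pre-HSC II, 1 of 19 tested Jag1 peaks was lower than in pre-HSC I, where 4.29% of all tested peaks were lower. This was peak 6 (log2 fold change -0.84 ± 0.21 SE, edgeR adjusted p = 0.0109). Against E10.5 EC 2 were lower, peaks 6 and 7, where 16.2% of all tested peaks were lower (peak 7 at 3 counts against 83 in EC, a ratio of 0.143, exact 95% counting interval 0.029 to 0.432). The call of peak 6 against EC was lost on RLE size factors, on total counts and by DESeq2, and that of peak 7 without EC 2 or pre-HSC II 3. Peak 6 had 167, 150.3, 160.1 and 149 CPM in pre-HSC II, against 321, 301 and 215 CPM in pre-HSC I, without overlap, and that call missed the threshold on RLE size factors or without pre-HSC I library 1.

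**Figure D4:**
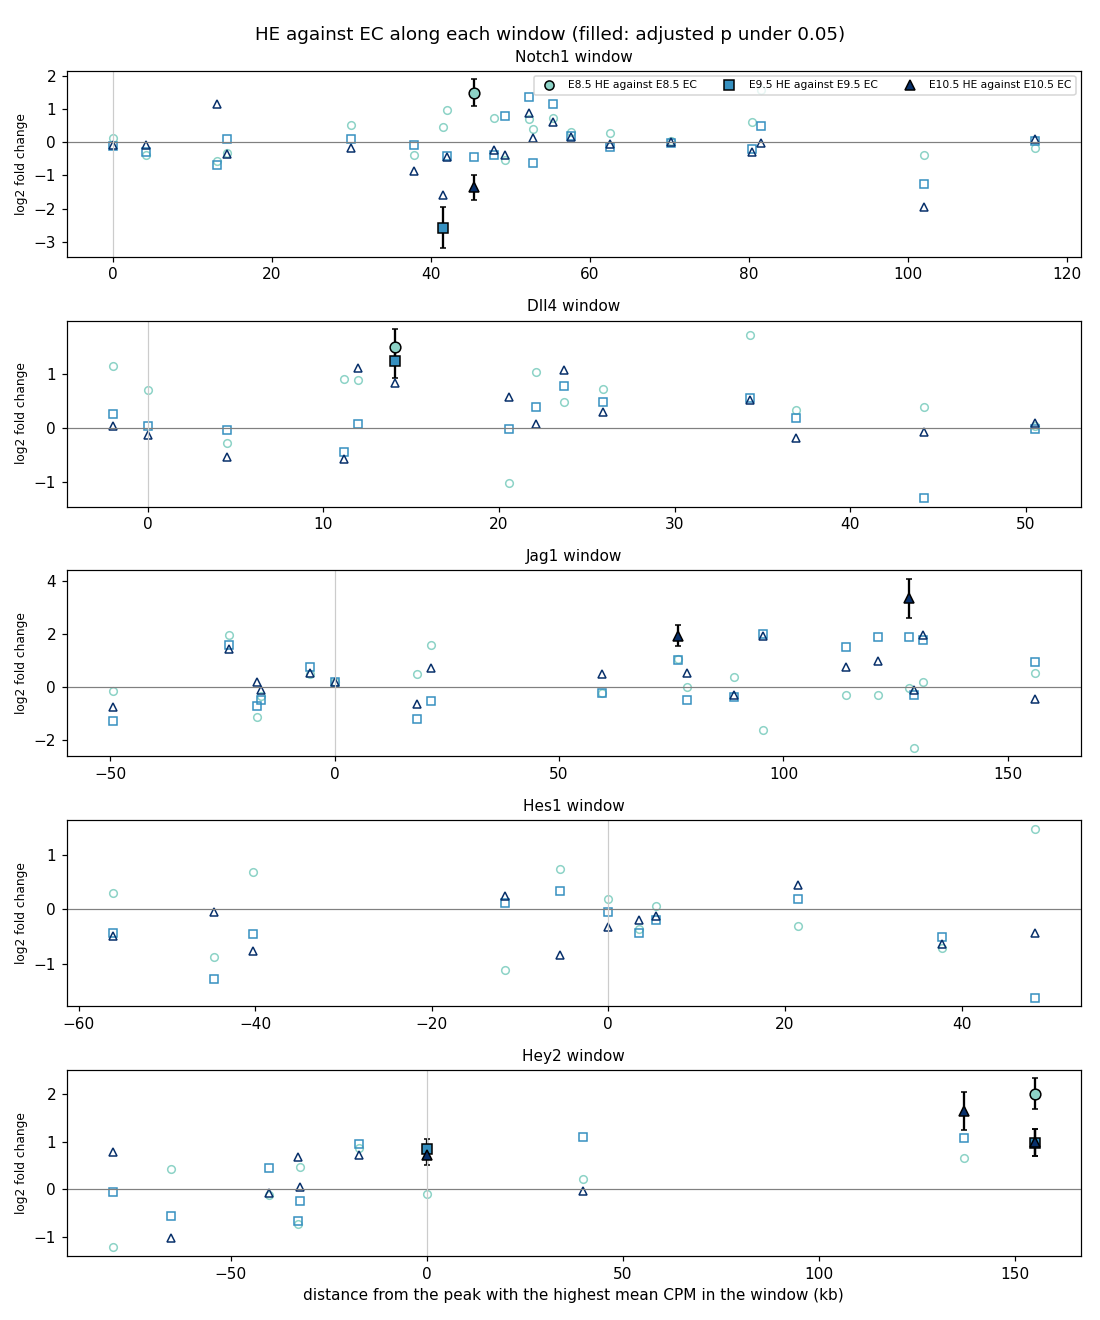
Log2 fold change of HE against EC on each of the 3 days for every tested member, by its distance in kb from the peak with the highest mean CPM of its window. Filled symbols with SE bars are called at an edgeR adjusted p of 0.05: Notch1 peak 9 is filled above 0 at E8.5 and below 0 at E10.5, and no symbol of the Hes1 window is filled.

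At the target Hes1 none of the 11 tested peaks was called between HE and EC on any day. Of all tested peaks 1.44%, 2.58% and 2.28% were called on the 3 days, so none of 11 is near the all-peak share. The differences called in this window lay between days and at pre-HSC II. Hes1 peak 8 (chr16:30062604-30067597), the strongest of the window and the widest of all members, averaged 191 ± 68.6 CPM in HE and 167 ± 50.7 CPM in EC at E8.5 (SD, n = 4 each). At E9.5 it averaged 309.6 ± 21.1 CPM in HE and 322 ± 24.1 CPM in EC, and at E10.5 248.7 ± 113 CPM in HE and 313 ± 109.5 CPM in EC. HE and EC overlapped on every day, and the log2 fold changes of HE against EC were 0.20 ± 0.24, -0.06 ± 0.24 and -0.33 ± 0.24 (SE) in the order of the days. In EC it was higher at E9.5, with 310.3, 331, 295 and 350.3 CPM in E9.5 EC, against 152, 103, 216 and 198 CPM in E8.5 EC (log2 fold change 0.94 ± 0.24 SE, edgeR adjusted p = 0.00722), with no overlap. That call held with any 1 library left out and was lost without the shallow E8.5 or the chromosome X libraries. Pre-HSC II had 48.6, 68.9, 86.0 and 122 CPM, against 267, 183 and 205 CPM in pre-HSC I. All pre-HSC II libraries were below all pre-HSC I libraries (log2 fold change -1.39 ± 0.27 SE, edgeR adjusted p = 0.000902) and below all E10.5 EC libraries (log2 fold change -1.92 ± 0.26 SE, edgeR adjusted p = 5.27e-08), and both calls held in every alternative and with any 1 library left out. The second of these was the smallest adjusted p of any member in any comparison.

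Other Hes1 peaks were lower in pre-HSC II as well. Peak 10 (chr16:30069666-30071239) had 10.4, 7.51, 14.3 and 46.0 CPM in pre-HSC II, against 54.2, 35.04 and 49.4 CPM in pre-HSC I, with overlap through pre-HSC II library 4 (log2 fold change -1.10 ± 0.35 SE, edgeR adjusted p = 0.0498). This call was lost on RLE size factors, on total counts, by DESeq2 and with only these groups in the fit. With 1 library left out, it was lost without pre-HSC I 1 or 4 or pre-HSC II 1, 2 or 3. Peak 1 (chr16:30008468-30009449) averaged 20.1 ± 11.04 CPM in pre-HSC II and 75.7 ± 12.9 CPM in E10.5 EC (log2 fold change -1.92 ± 0.33 SE, edgeR adjusted p = 6e-06), and was higher in E9.5 EC than in E8.5 EC (log2 fold change 1.21 ± 0.29 SE, edgeR adjusted p = 0.00353), a call lost without the shallow E8.5 libraries. In all, 5 of 11 tested Hes1 peaks were lower in pre-HSC II than in E10.5 EC (peaks 1, 6, 8, 10 and 12), where 16.2% of all tested peaks were lower. Peaks 6 and 12 had no count in any pre-HSC II library, against 38 and 30 counts in E10.5 EC, so peak 6 was at least 3.21-fold and peak 12 at least 2.53-fold lower, taking 3 counts over the group as the floor. Both calls were lost without pre-HSC II 2 or 4, and that of peak 12 also without EC 2 or pre-HSC II 3. Peak 12 (chr16:30086367-30086879) had the widest range of the window, and its highest group was E8.5 EC with 10.0 ± 1.19 CPM.

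At the target Hey2 a peak at the far end of the window was higher in HE than in EC on all 3 days. Hey2 peak 10 (chr10:30717412-30718784), 155 kb from the strongest peak of the window, had 63.9, 39.2, 56.9 and 39.1 CPM in E8.5 HE, against 8.66, 5.23, 13.3 and 19.1 CPM in E8.5 EC. At E9.5 it had 62.0, 83.5, 58.2 and 76.0 CPM in HE, against 35.1, 38.1, 37.1 and 32.4 CPM in EC. At E10.5 it had 62.9, 87.5, 83.9 and 41.1 CPM in HE, against 33.9, 38.1, 41.5 and 27.2 CPM in EC. Every HE library was above every EC library at E8.5 and E9.5, and at E10.5 the groups met only where HE 4 lay just under EC 3. The differences were called at E8.5 (log2 fold change 2.00 ± 0.32 SE, edgeR adjusted p = 0.000101), E9.5 (log2 fold change 0.97 ± 0.28 SE, edgeR adjusted p = 0.0448) and E10.5 (log2 fold change 0.98 ± 0.29 SE, edgeR adjusted p = 0.0475). In EC the peak was higher at E9.5 than at E8.5 (log2 fold change 1.52 ± 0.32 SE, edgeR adjusted p = 0.000864), a call that held with any 1 library left out and was lost without the shallow E8.5 libraries. The fold of HE against EC was larger at E8.5, but its change between E8.5 and E9.5 did not pass the test (log2 fold change -1.03 ± 0.42 SE, edgeR adjusted p = 0.238). The E8.5 call held with any 1 library left out and was lost without the 4 shallow libraries (edgeR adjusted p from 1.88e-07 to 0.215 over its alternatives). The E9.5 call was lost with any 1 of the 8 libraries left out and without the chromosome X libraries, and the E10.5 call was kept in 1 of 8 such fits, that without HE 4. Both were also lost with no filter, and the E10.5 call with only these groups in the fit.

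Hey2 peak 7 (chr10:30561763-30564621), the strongest of the window, was higher in HE than in EC at E9.5 and E10.5. It had 201, 148, 195 and 260.3 CPM in E9.5 HE, against 123, 115, 98.9 and 107 CPM in E9.5 EC. The groups did not overlap (log2 fold change 0.85 ± 0.21 SE, edgeR adjusted p = 0.011), and the call was lost without EC 4 or HE 4 and without the chromosome X libraries. At E8.5 the means were 129 ± 15.9 CPM in HE and 138 ± 19.0 CPM in EC (log2 fold change -0.10 ± 0.21 SE, edgeR adjusted p = 0.891). The change of the difference from E8.5 to E9.5 did not pass edgeR's test (log2 fold change 0.95 ± 0.29 SE, edgeR adjusted p = 0.0797). DESeq2 called that change, higher (log2 fold change 0.91, DESeq2 adjusted p = 0.00855). At E10.5 the libraries had 248, 183, 250 and 131 CPM in HE and 145, 105, 135 and 109 CPM in EC, with overlap (log2 fold change 0.72 ± 0.21 SE, edgeR adjusted p = 0.0426), a call kept without EC 1 and without HE 4 and lost in the other 6 fits that left out a library, with no filter, without the shallow HE libraries and with only these groups in the fit. Peak 9 (chr10:30699828-30700602) was called at E10.5 as well, with 40.3, 36.8, 37.1 and 19.3 CPM in HE, against 21.2, 9.72, 5.47 and 7.91 CPM in EC (log2 fold change 1.64 ± 0.40 SE, edgeR adjusted p = 0.0124). The groups overlapped through HE library 4 and EC library 1, and the call was lost without EC 2, 3 or 4 and with only these groups in the fit.

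Hey2 peak 10 was lower in pro-HSC/HPC and in pre-HSC II, and peak 7 was lower in pre-HSC II than in pre-HSC I. Peak 10 had 46.3, 26.8 and 17.0 CPM in pro-HSC/HPC, below all E9.5 HE libraries (log2 fold change -1.18 ± 0.32 SE, edgeR adjusted p = 0.0354), a call kept without HE 3 and without pro-HSC/HPC 1, and lost in the other 5 fits that left out a library and without the chromosome X libraries. In pre-HSC II it had 13.9, 12.5, 7.17 and 16.3 CPM, against 73.6, 22.3 and 45.2 CPM in pre-HSC I. The groups did not overlap, and peak 10 was lower in pre-HSC II than in pre-HSC I (log2 fold change -1.88 ± 0.37 SE, edgeR adjusted p = 0.00114) and than in E10.5 EC (log2 fold change -1.47 ± 0.35 SE, edgeR adjusted p = 0.00114). Both calls held in every alternative and with any 1 library left out. Peak 7 was lower in pre-HSC II than in pre-HSC I too (log2 fold change -0.95 ± 0.23 SE, edgeR adjusted p = 0.00783; lost without pre-HSC I library 1), with 106, 92.7, 71.7 and 102 CPM in pre-HSC II and 229, 139 and 174 CPM in pre-HSC I, but it was not called against E10.5 EC (log2 fold change -0.41 ± 0.21 SE, edgeR adjusted p = 0.162). Peak 1 (chr10:30483082-30483392) had no count in pre-HSC II against 28 in pre-HSC I, at least 6.39-fold lower with 3 counts over the group as the floor, and this call was kept by 1 of the 6 other settings that gave it a value and in 1 of the 7 fits that left out a library.

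**Figure D5:**
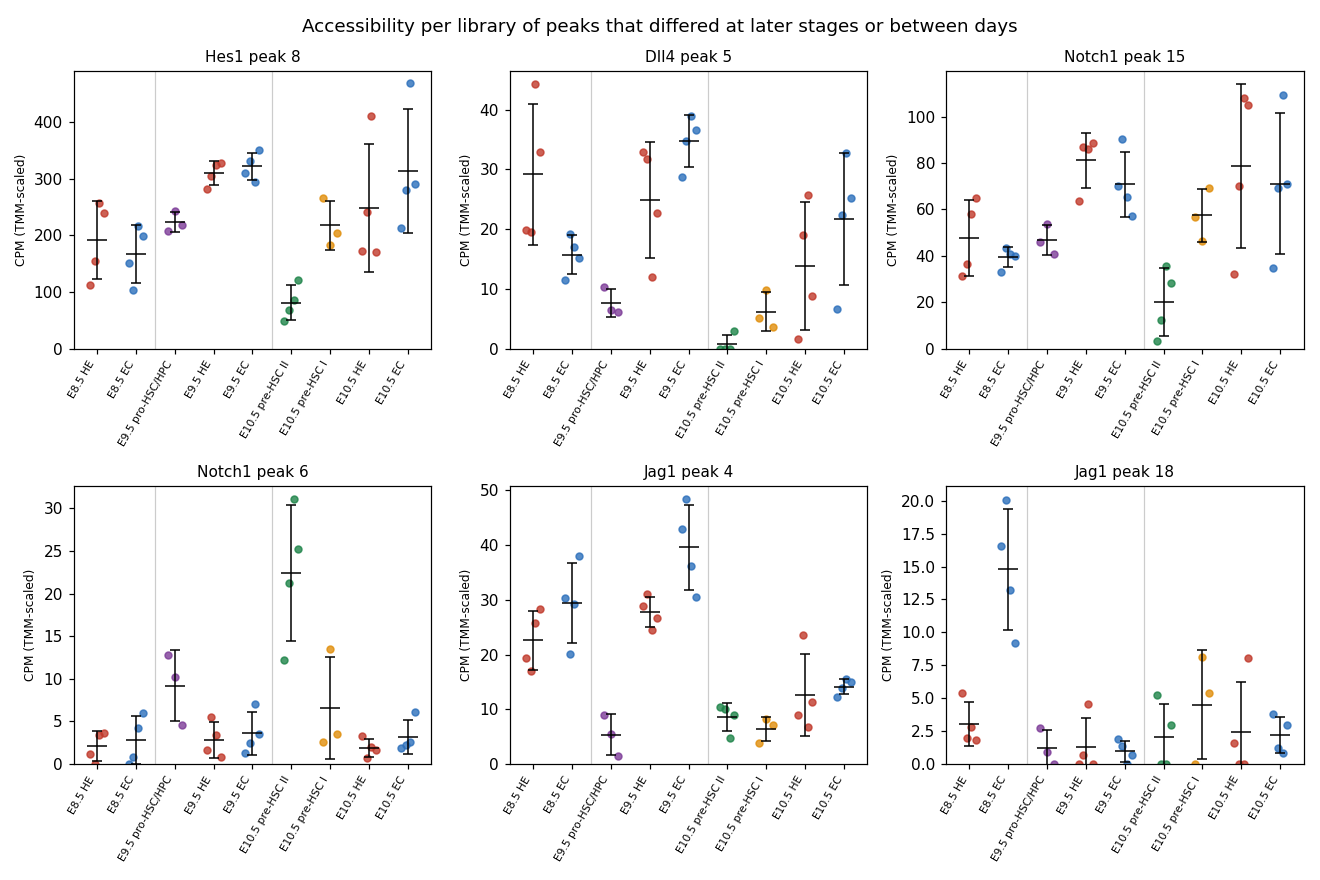
CPM (TMM scale) in each library of 6 members that differed at later stages or between days, with the group mean and SD in black. Hes1 peak 8, Dll4 peak 5 and Notch1 peak 15 are low in pre-HSC II, Notch1 peak 6 is at 12.1 to 31.1 CPM there and at most 7.07 CPM in HE and EC, Jag1 peak 4 is low in pro-HSC/HPC, and Jag1 peak 18 is high in E8.5 EC.

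Over the 9 group means, Dll4 peak 7 had a Pearson correlation of 0.93 with Notch1 peak 15, and Hes1 peak 8 one of 0.97 with Notch1 peak 1 and 0.97 with Notch1 peak 15. These are descriptions over the same 34 samples, which share library depth and the share of reads in strong peaks. Outside the windows, the peaks most like the members with the widest ranges, by Pearson correlation of log2 CPM over the 34 samples, were chr18:83078779-83084825 (0.961) and chr8:85682748-85683414 (0.955) for Dll4 peak 5. For Notch1 peak 7 they were chr13:44424802-44425507 (0.863) and chr2:167745281-167746106 (0.853). The 2 closest peaks reached 0.852 and 0.842 for Jag1 peak 7, 0.888 and 0.873 for Hes1 peak 12 and 0.764 and 0.751 for Hey2 peak 1.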

How the data were processed

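The authors deposited raw counts, whole numbers that are not normalized, of reads in 76018 peaks for 35 libraries. Per the submitters' processing notes the build was mm9 and the tools, named without role or order, were DiffBind 1.14.6, MACS2 2.0.1, Trim Galore 0.3.1, deepTools, bedtools 2.17.0, Bowtie 1.0.0 and SAMtools. The sources used here do not give read filters, any shift of reads for the transposase, the counting, or whether coordinates start at 0 or 1. Even counts were in excess (54.1% to 78.2% of those between 10 and 49, by library), so reads may come in pairs, and intervals and floors, which cover counting error only, may be too narrow. The members and lists were chosen with earlier results of these data known. Groups follow the sample titles. Peaks were filtered with filterByExpr by group (67108 kept, 8910 removed), and scaled with TMM. The two-sided quasi-likelihood test of edgeR 4.0.16 (glmQLFit, then glmQLFTest; R 4.3.3) used 1 fit of 34 samples with a mean per group (common dispersion 0.147, 25 residual degrees of freedom) and Benjamini-Hochberg adjustment over all tested peaks at 0.05. The SE is the absolute log2 fold change divided by the square root of F. CPM are counts over the TMM-scaled library size. The peaks named were, per window, the one with the highest mean CPM and the one with the widest range of group means, and every called member, the 6 with the smallest adjusted p per comparison in full. Calls by DESeq2 or the paired fit alone, and comparisons in which a named peak was not called, were named after their values were seen. Replicate numbers were taken to pair the samples only between E10.5 HE and EC, where same-numbered libraries deviated together (correlations 0.248, 0.189, 0.33 and 0.125 for numbers 1 to 4, from the data and not the labels). In E9.5 pro-HSC/HPC against HE each same-numbered library was the best match too, with lower correlations of 0.066, 0.104 and 0.074. Whether a weaker pairing held there or elsewhere was not tested. Alternatives were RLE size factors, total counts, DESeq2 1.42.0, no filter, only the groups compared, a replicate block, leaving out each library, and leaving out the libraries that stood apart. Those that left out the chromosome X libraries from the EC comparisons and the changes, and the fit of E10.5 HE and EC alone with a replicate block, were added after seeing the data.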

Additional observations from a re-analysis of the deposited data

Results flagged for a closer look

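In groups of 4 libraries, a library was singled out where its gap to the next, as a share of the group's range, exceeded Dixon's 95% critical value. Over 34 named peaks this was tested in 235 sets of 4 and singled out 16, where chance gives about 1 in 20. Among the Notch1 peaks, E9.5 HE library 1 was low at peak 5 (43.1 CPM, the others 65.0 to 69.0) and at peak 15 (63.5, the others 86.1 to 88.5). E10.5 EC library 4 was high at peak 6 (6.15, the others 1.88 to 2.59). E8.5 HE library 1 was low at peak 19 (3.62, the others 17.0 to 17.7). Pre-HSC II library 1 was high at Notch1 peak 19 (13.9, the others 0 to 0.742), and a single pre-HSC II library had counts at Notch1 peak 7 (2.39, library 3), Notch1 peak 21 (2.39, library 3) and Dll4 peak 5 (2.97, library 4), the others being at 0. E10.5 HE library 3 was high at Dll4 peak 7 (166, the others 58.0 to 74.9) and at Jag1 peak 10 (39.8, the others 20.2 to 22.6), and E10.5 EC library 3 at Jag1 peak 6 (308, the others 221 to 230.0). E10.5 EC library 2 was low at Jag1 peak 10 (3.17, the others 7.77 to 8.49), and E9.5 HE library 3 high at Jag1 peak 18 (4.56, the others 0 to 0.643). E8.5 EC library 1 was low at Hes1 peak 6 (2.16, the others 4.92 to 5.23), E9.5 EC library 1 high at Hey2 peak 1 (5.28, the others 0.703 to 0.883), and E10.5 HE library 4 low at Hey2 peak 9 (19.3, the others 36.8 to 40.3). The HE minus EC difference of Notch1 peak 9 changed by -1.95 (log2) between E8.5 and E9.5 by the test of the change itself.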

How the results depend on the processing

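No called member changed sign under any alternative, and 22 of 70 named calls held in every alternative and with any 1 library left out. Counts of called members in HE against EC at E8.5 were 5 with only the groups compared and 0 once the shallow libraries (1 and 2 of both groups) were removed, at E9.5 14 and, without the libraries high in the chromosome X peak, 0, and at E10.5 1 and, without the shallow HE libraries 1 and 4, 3, against 3, 4 and 6 as reported. Pro-HSC/HPC against HE (5) gave 13 with only the groups compared and 1 without the chromosome X libraries. Pre-HSC I against HE (0) gave 1 by DESeq2, 1 with the near-identical pre-HSC I pair not averaged and 5, all lower, without the shallow HE libraries. Pre-HSC II set against pre-HSC I (10) gave 5 on RLE size factors and 6 on total counts. E9.5 against E8.5 EC (14) gave 1 without the shallow E8.5 libraries and 8 without the chromosome X libraries, and E10.5 against E9.5 EC (1) gave 2 by DESeq2, 2 with only the groups compared and 0 without the chromosome X libraries. The change from E8.5 to E9.5 (1) gave 2 on RLE size factors, 3 by DESeq2, 7 with only the groups compared, 0 without the shallow and 0 without the chromosome X libraries. For fits that left out libraries or groups or used a replicate block, counts over all peaks are not given here. A shift at the members alone therefore cannot be told from a general one in those fits. Leaving out libraries also leaves fewer samples in the fit, and the cause of the other shifts was not tested. With any 1 library left out the counts ranged, in the order of the comparisons above, from 2 to 3, 0 (without HE 4) to 3, 2 (without EC 2) to 5, 1 (without HE 2) to 4, 0 to 0, 4 (without pre-HSC I 1) to 16 (without pre-HSC II 4), 11 to 15, 0 to 1 and 0 to 1. They ranged from 20 (without EC 2) to 26 for pre-HSC II against EC, and stayed at 0 for the change from E9.5 to E10.5. With the replicate number as a block in the fit of all groups the counts were 3, 4, 6, 5, 0, 14, 16, 1 and 1 in that order, 26 for pre-HSC II against EC and 0 for the last change. In the fit of E10.5 HE and EC alone, where the numbers were taken to pair the samples, the replicate block gave 9 (7 higher, 2 lower) and kept the 6 calls. In the other comparisons not every same-numbered pair had a correlation above 0.1, and whether a weaker pairing held there was not tested. Depth limits weak peaks most in pre-HSC II, where 3 counts are up to 6.57 CPM.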
